A study of Mus musculus with 4 samples.

Results

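Integrins are the cell surface receptors by which endothelial cells hold the basement membrane, and focal adhesion components are the proteins that join their tails to actin. The genes described here are the 47 rows of the deposited gene table whose symbol begins with Itga or Itgb or is 1 of 16 named adhesion components, among 17915 genes in all. Of the 47, 26 encode integrin alpha or beta chains, 16 are the named components, and 5 only share the start of the symbol. The libraries are bulk RNA sequencing of lung endothelial cells of mice 6 weeks after transverse aortic constriction, a narrowing of the aorta that loads the heart and the vessels behind it. The genotype of every library was Cdh5-CreER;aSMA-LSL-Dre;NR1, in which the endothelial Cdh5 promoter drives a recombinase that tamoxifen switches on, and a further recombinase, Dre, depends on it and on alpha smooth muscle actin expression. All mice received tamoxifen 5 times. Endothelial cells carry ZsGreen in this system and carry tdTomato for good once the actin gene has been active, so the groups are tdTomato+ cells (2 libraries) and ZsGreen+ cells (2 libraries) of the same genotype and treatment. The labels call the libraries biological replicates but do not say whether they came from separate mice or pools, so the tests speak of variation among these libraries, which may be technical. No library without constriction is in the comparison, and the age of the mice is not among the labels used here.

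An integrin is a dimer of an alpha and a beta chain, and the pairing sets the ligand: chains such as Itga1 and Itga2 bind collagen, Itga3, Itga6 and Itga7 bind laminin, and Itga5, Itga8 and Itgav bind the RGD motif of fibronectin and related proteins. Talins and kindlins bind the beta tail and switch the receptor on. The complex of integrin-linked kinase, PINCH (Lims1, Lims2) and parvin, together with tensins, ties it to actin, and focal adhesion kinase (Ptk2), Src, paxillin and p130Cas (Bcar1) signal from it. Another set of chains, Itgal, Itgam, Itgax, Itgad and Itgae with Itgb2 or Itgb7, belongs to leukocytes, as does the kindlin Fermt3, which platelets share.

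RefSeq windows of 250 bases before the gene start (GRCm38.p6) were matched for 33 of the 47 genes. Those of Itgb1, the member with the highest level, and of Itgam, a myeloid chain among the members furthest apart between the groups, are shown because one is the common chain of endothelial adhesion receptors and the other a chain known from leukocytes. They lie at chr8:128685404-128685653 and chr7:128062390-128062639, both on the plus strand. Capitals mark GAGGAA on either strand, a core that the myeloid factor PU.1 recognises.
Itgb1: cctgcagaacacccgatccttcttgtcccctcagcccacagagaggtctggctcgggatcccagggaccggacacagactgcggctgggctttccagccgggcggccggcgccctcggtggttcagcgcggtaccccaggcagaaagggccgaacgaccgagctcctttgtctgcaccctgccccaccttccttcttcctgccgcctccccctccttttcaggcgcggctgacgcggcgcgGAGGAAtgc
Itgam: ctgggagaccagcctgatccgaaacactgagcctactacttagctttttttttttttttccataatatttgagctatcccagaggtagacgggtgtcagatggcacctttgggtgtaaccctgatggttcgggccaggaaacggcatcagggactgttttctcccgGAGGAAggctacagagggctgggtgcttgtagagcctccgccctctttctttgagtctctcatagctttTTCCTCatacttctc
The Itgam window held 2 matches and the Itgb1 window 1. Counted by gene, 12 of the 33 had a match in at least 1 of their windows, which numbered 39 in all. Counted by window, 23.3% of 32851 windows of that length over all genes held one, so a match is common and is a description only.

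No integrin or focal adhesion gene passed the test over all genes. Of the 47 genes 41 had counts high enough to be tested, and edgeR's quasi-likelihood test, adjusted over 13177 genes with a threshold of 0.05, called 0 of them, against 0.304% of all genes (0.167% higher and 0.137% lower in tdTomato+). At an unadjusted p under 0.05 edgeR listed 6 of the 41 (14.6%) against 8.77% of all genes, each with the tdTomato+ libraries above: Itgb4, Itgam, Itgb3, Src, Itgb2 and Itgal. Limma-voom called 0 members, against 0.25% of all genes, while DESeq2 called 2, Itgb4 and Itgam, against 2.5% of all genes. Both libraries of one group lay beyond both of the other for 23 of the 41 members (56.1%), 16 with tdTomato+ above and 7 with ZsGreen+ above, against 38.1% of all genes (19.9% and 18.2%). The median log2 fold change, tdTomato+ over ZsGreen+, was 0.22 over the 41 members and -0.01 over all genes tested. The members' median was 0.07 without tdTomato+ replicate 2 and 0.08 with a minimum count of 50. Of the 41, 24 (58.5%) had a log2 fold change above 0, against 49.3% of all genes. Members were also split by role, a split made with earlier results of these data known and thus a description only. The 8 tested leukocyte genes (the leukocyte chains with Itga4 and Fermt3) had a median of 1.09. The other 33 had a median of -0.000816, with 16 above and 17 below 0.

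**Figure D1:**
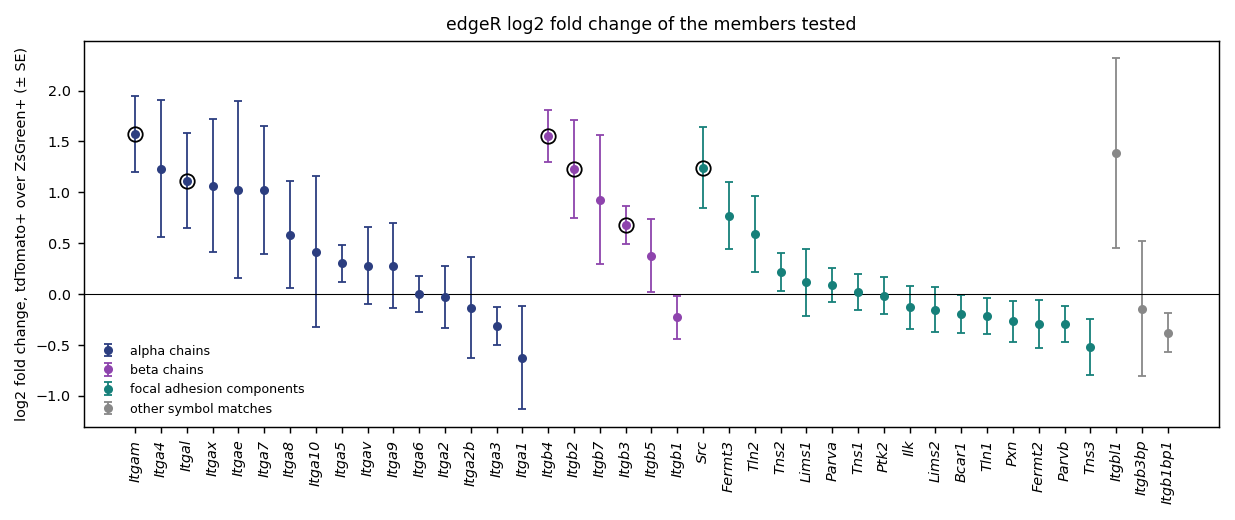
The 41 genes tested on the x axis, with edgeR log2 fold changes, tdTomato+ over ZsGreen+, as points and bars of ± 1 standard error; colours separate alpha chains, beta chains, focal adhesion components and other symbol matches, and black rings mark unadjusted p under 0.05. The 6 ringed genes all lie above 0, from 0.68 for Itgb3 to 1.57 for Itgam, and most focal adhesion components lie close to 0.

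Levels of different genes were compared in TPM, a measure of transcript abundance that takes the length of each gene into account. Among alpha chains Itga5, the fibronectin receptor chain, and the laminin receptor chains Itga3 and Itga6 took 87.7% and 86.2% of summed alpha chain TPM in tdTomato+ libraries. In ZsGreen+ libraries they took 89.6% and 84.3%. Itgb1, the partner of most alpha chains, led the beta chains with a mean of 423 TPM over the 4 libraries. Its share of beta chain TPM was 72.3% and 75.8% in tdTomato+ and 82.4% and 91.7% in ZsGreen+ libraries. The share was thus lower in both tdTomato+ libraries, while Itgb1 itself stood at 425 and 394 TPM against 345 and 529 TPM and overlapped. Among focal adhesion components Lims2 (mean 282 TPM) and Ilk (mean 268 TPM) were highest, and Src (2.83 TPM) and Tln2 (0.713 TPM) lowest.

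**Figure D2:**
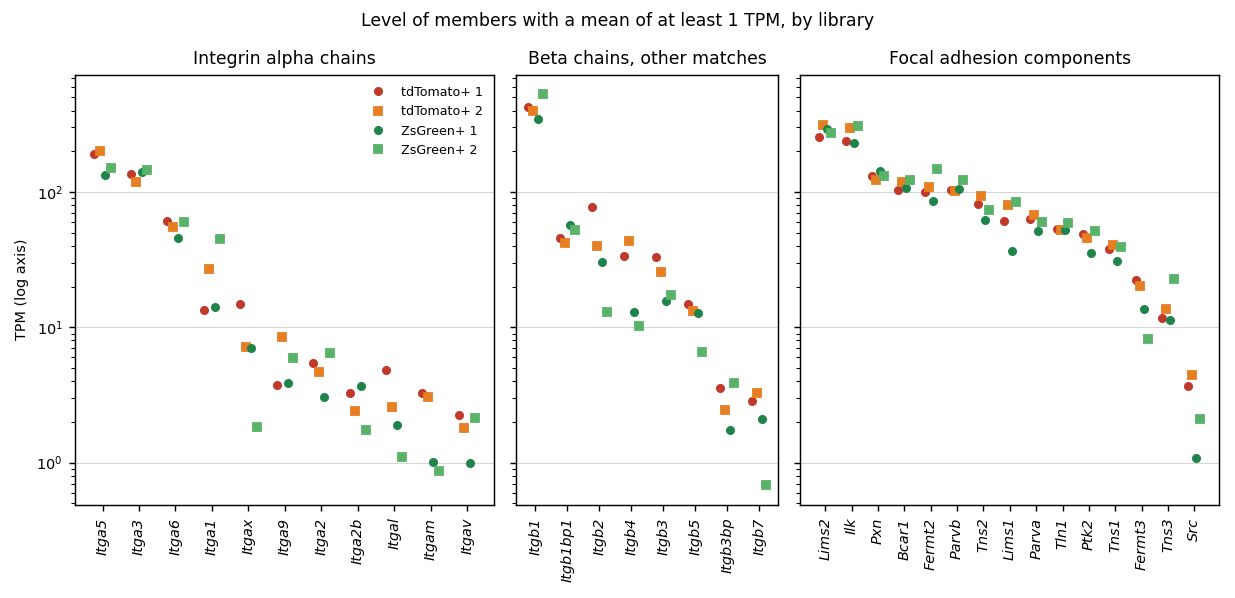
TPM on a log axis for each gene with a mean of at least 1 TPM, in panels for alpha chains, beta chains with other symbol matches, and focal adhesion components, with 1 point per library (red and orange tdTomato+ 1 and 2, dark and light green ZsGreen+ 1 and 2). The points of Itgb4, Itgb3, Itgam and Src separate by group, those of Itgb1, Ilk and Ptk2 overlap, and Itgax and Itgb2 are lowest in ZsGreen+ 2.

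**Figure D3:**
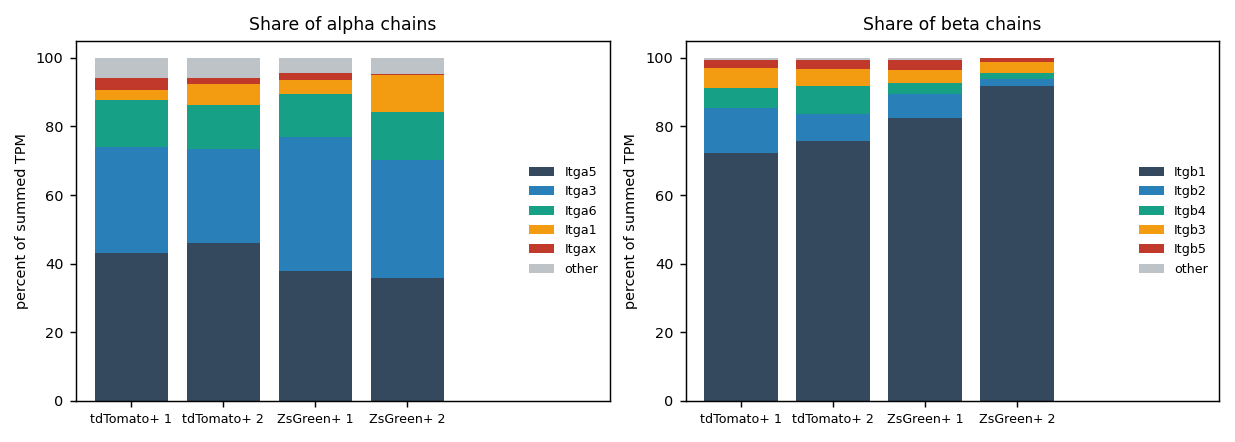
Percent of summed TPM that each chain takes among alpha chains (left) and beta chains (right), 1 stacked bar per library. Itga5, Itga3 and Itga6 fill 84.3% to 89.6% of the alpha bars, and Itgb1 fills 72.3% to 91.7% of the beta bars.

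Itgb4, the beta chain that pairs with Itga6 to bind laminin and that anchors hemidesmosomes in epithelia, was the member with the smallest p. It stood at 125 and 166 CPM (counts scaled by library size and TMM factors) in tdTomato+ libraries. In ZsGreen+ libraries it stood at 59.3 and 39.5 CPM. Every tdTomato+ value was above every ZsGreen+ value. The means were 145 ± 29.5 against 49.4 ± 13.96 CPM (SD, n = 2 each), a log2 fold change of 1.56 (SE 0.26, edgeR unadjusted p = 0.000535, adjusted p = 0.0978), rank 72 by p among all genes. Itgb4 (NCBI Gene 192897) spans 115974725 to 116008412 on chromosome 11 of GRCm38, and a long non-coding gene on the opposite strand covers 7.66% of its exonic bases. The adjusted p was 1.27e-05 with DESeq2 and 0.0159 with edgeR without a filter on low counts, so this gene crossed the threshold in those fits. It did not cross it with limma-voom, with other scaling factors, with a minimum count of 50 or in the fits on TPM. With the replicate block described at the end it crossed it too, and with 1 library left out this depended on the library. Its log2 fold change lay between 1.29 and 1.88 over all settings, those without 1 library included.

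Itga6, its partner chain, stood at 215 and 206 CPM in tdTomato+ and 200 and 222 CPM in ZsGreen+ libraries, so the groups overlapped. The ratio of Itgb4 to Itga6 in TPM, which no scaling of libraries alters, was 0.558 and 0.781 in tdTomato+ libraries. In ZsGreen+ libraries it was 0.286 and 0.173. Epithelial cells also express both chains, and epithelial markers were read in these libraries. Epcam, an epithelial surface marker, stood at 1.1 and 0.683 against 0.38 and 0.438 CPM, and Krt18 at 7.1 and 8.87 against 2.28 and 2.96 CPM. The 12 lung epithelial markers summed to 444 and 536 CPM in tdTomato+ and 280 and 536 CPM in ZsGreen+ libraries, with none at 0 in every library and a median log2 fold change of 0.72. Scgb1a1, a club cell gene, made up 384 CPM of the sum in ZsGreen+ replicate 2, and without it the sums were 396 and 482 against 262 and 152 CPM. Hopx stood the other way, at 2.7 and 3.05 against 4.87 and 5.92 CPM. Their part in the Itgb4 values was not tested. Itgb6, a chain of epithelia, had 13 and 5 counts in tdTomato+ libraries and none in ZsGreen+ libraries.

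Itgb3, the chain of the vitronectin receptor in endothelium and of the fibrinogen receptor in platelets, stood at 114 and 92.7 CPM in tdTomato+ libraries. In ZsGreen+ libraries it stood at 66.8 and 62.5 CPM, and the groups did not overlap. The log2 fold change was 0.68 (SE 0.18, edgeR unadjusted p = 0.00791, adjusted p = 0.28). Its vitronectin receptor partner Itgav stood at 9.9 and 8.3 against 5.38 and 9.59 CPM, and overlapped. Its platelet partner Itga2b stood at 6.55 and 5.04 against 9.05 and 3.67 CPM, and the platelet chemokine Pf4 at 12 and 12.9 against 19.8 and 9.7 CPM. Both platelet genes overlapped between the groups, with the highest value in ZsGreen+ replicate 1. Of 8 platelet markers tested, Pf4 among them, 7 overlapped. The other 1, Gp1ba, lay higher in both tdTomato+ libraries, at 2.92 and 2.57 against 2.21 and 1.81 CPM, beside 19.9% of all genes. The part of platelets in the Itgb3 values was not tested.

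Itgb1 stood at 1047 and 1018 CPM in tdTomato+ and 1049 and 1365 CPM in ZsGreen+ libraries, a log2 fold change of -0.23 (SE 0.21), with ZsGreen+ replicate 2 alone set apart. Itgb5, a vitronectin receptor chain, stood at 24.1 and 23.6 against 25 and 11.7 CPM, and the groups overlapped. Its log2 fold change of 0.38 turned to -0.07 without ZsGreen+ replicate 2. Itgb8, an activator of latent TGF-beta with Itgav, had 1 and 5 counts in tdTomato+ libraries and none in ZsGreen+ libraries, too few to test.

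Among the abundant alpha chains the fibronectin receptor chain Itga5 and the laminin receptor chain Itga3 lay on opposite sides of 0. Itga5 stood at 496 and 543 CPM in tdTomato+ libraries against 432 and 412 CPM in ZsGreen+ libraries, without overlap. The difference came to 0.30 on the log2 scale (SE 0.18, edgeR adjusted p = 0.767). Itga3 stood at 393 and 359 against 495 and 440 CPM, again without overlap, with a log2 fold change of -0.31 (SE 0.19, edgeR adjusted p = 0.762). Neither passed the test. Among alpha chains Itga5 made up 43.2% and 46.0% of TPM in tdTomato+ and 37.7% and 35.7% in ZsGreen+ libraries, and Itga3 30.9% and 27.5% against 39.1% and 34.5%. Itga7, a laminin receptor chain of muscle, lay at 1.38 and 1.73 against 0.759 and 0.767 CPM, near the limit of what could be tested.

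The collagen receptor chains varied within the groups. Itga1, a chain of microvascular endothelium, smooth muscle and fibroblasts, stood at 47.7 and 101 CPM in tdTomato+ and 61.8 and 168 CPM in ZsGreen+ libraries. In each group replicate 2 held the higher value, and the groups overlapped. The log2 fold change of -0.63 (SE 0.51) turned to 0.27 without ZsGreen+ replicate 2. Itga2 stood at 23 and 21 against 15.9 and 28.9 CPM. Itga10 lay at or under 1.65 CPM and Itga11, a chain of fibroblasts, had 3, 6, 0 and 1 counts.

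Itga9, a chain known from lymphatic endothelium and its valves, stood at 15.7 and 37.5 CPM in tdTomato+ and 17.7 and 26.1 CPM in ZsGreen+ libraries, and overlapped. Of 8 lymphatic markers in the same libraries, 7 lay lower in both tdTomato+ libraries, beside 18.2% of all genes. The list's median was -2.21 on the log2 scale, and the part of lymphatic cells in the Itga9 values was not tested. Itga8, a chain of fibroblasts and smooth muscle, lay at 2.31 and 3.36 against 1.58 and 2.19 CPM.

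**Figure D4:**
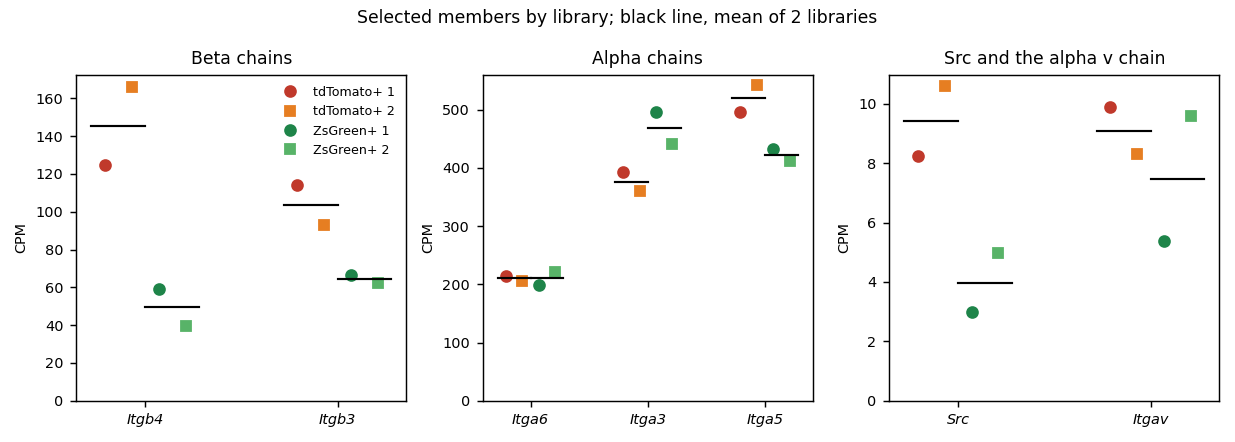
CPM of 7 genes by library on axes that start at 0 (red and orange tdTomato+ 1 and 2, dark and light green ZsGreen+ 1 and 2); black lines are means of 2 libraries. Itgb4, Itgb3, Itga5 and Src lie above ZsGreen+ in both tdTomato+ libraries, Itga3 lies below, and Itga6 and Itgav overlap.

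Leukocyte integrins were read in every library, with the most in tdTomato+ replicate 1 and the least in ZsGreen+ replicate 2. Itgb2, the shared beta chain of leukocytes, stood at 128 and 69.3 CPM in tdTomato+ libraries. In ZsGreen+ libraries it stood at 61.7 and 22.6 CPM. The groups did not overlap, but the gap between them was narrower than the gap within either, and the log2 fold change was 1.23 (SE 0.48, edgeR unadjusted p = 0.0395, adjusted p = 0.527). Itgam, the CD11b chain of macrophages, monocytes and neutrophils, stood at 9.02 and 8.82 against 3.48 and 2.52 CPM. Its libraries were close within each group, and its log2 fold change was 1.57 (SE 0.37, edgeR unadjusted p = 0.00407, adjusted p = 0.216). In GENCODE annotation 68.7% of its exonic bases are shared with Gm49368, a gene model on the same strand, so its count is uncertain. DESeq2 gave Itgam an adjusted p of 0.0331. Itgal, the CD11a chain of lymphocytes and myeloid cells, stood at 15 and 8.45 against 7.28 and 3.56 CPM (log2 fold change 1.11, SE 0.47). Itgax, the CD11c chain of dendritic cells and alveolar macrophages, stood at 35.05 and 17.7 against 20.7 and 4.55 CPM, and overlapped. Without ZsGreen+ replicate 1 the log2 fold changes of Itgb2 and Itgax were 2.13 and 2.54 (edgeR adjusted p = 0.0385 and 0.0431), so both were called in that fit. Without tdTomato+ replicate 1 they were 0.72 and 0.49, and without ZsGreen+ replicate 2 they were 0.67 and 0.34.

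The remaining leukocyte genes lay in a like order. Fermt3 stood at 32.7 and 31.5 against 25 and 12.7 CPM (log2 fold change 0.77, SE 0.33, edgeR unadjusted p = 0.0521), and without ZsGreen+ replicate 1 its log2 fold change was 1.34 (edgeR adjusted p = 0.0355). Itgb7, the gut homing chain, stood at 4.46 and 5.3 against 4.05 and 1.1 CPM, and Itga4, the VCAM-1 receptor chain, at 3.69 and 1.68 against 1.52 and 0.767 CPM. Itgae of intraepithelial T cells reached 1.82 CPM at most, and Itgad had 3 counts in all. Of the 8 tested, 6 had both tdTomato+ libraries above both ZsGreen+ libraries, beside 19.9% of all genes, and 0 had them below, beside 18.2%.

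Markers of leukocytes differed among themselves. edgeR called 0 of the 8 general leukocyte markers (1 at an unadjusted p under 0.05), and they summed to 1073 and 812 against 873 and 638 CPM, so their sum overlapped. Of these 8, Ptprc (CD45), named after its values were seen, had the smallest p (edgeR adjusted p = 0.364). It stood at 20.7 and 13.8 CPM in tdTomato+ and 8.61 and 3.51 CPM in ZsGreen+ libraries. Lcp1 and Srgn, of the same 8, had log2 fold changes of 0.02 and -0.04. Lcp1 stood at 258 and 185 against 237 and 199 CPM, and Srgn at 343 and 342 against 339 and 367 CPM. The 9 leukocyte members summed to 230 and 144 against 125 and 48.1 CPM. The 12 macrophage and monocyte markers summed to 5702 and 2766 against 3217 and 752 CPM, with none at 0 in every library. The ratio of Itgb2 to Ptprc in TPM was 11.4 and 9.23 in tdTomato+ and 13 and 11.8 in ZsGreen+ libraries, with both tdTomato+ values below both ZsGreen+ values. Per 100 CPM of the 8 general markers Itgb2 stood at 11.9 and 8.54 CPM in tdTomato+ and 7.07 and 3.55 CPM in ZsGreen+ libraries. Lcp1 and Srgn, which differed little between the groups, together made up the larger part of that sum in every library. The order of the groups thus depended on the marker taken, and the second order rests largely on Lcp1 and Srgn. The part of leukocytes in these values was not tested. In bulk libraries more leukocytes and more RNA per leukocyte cannot be told apart, nor can either be told from expression in the endothelial cells.

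**Figure D5:**
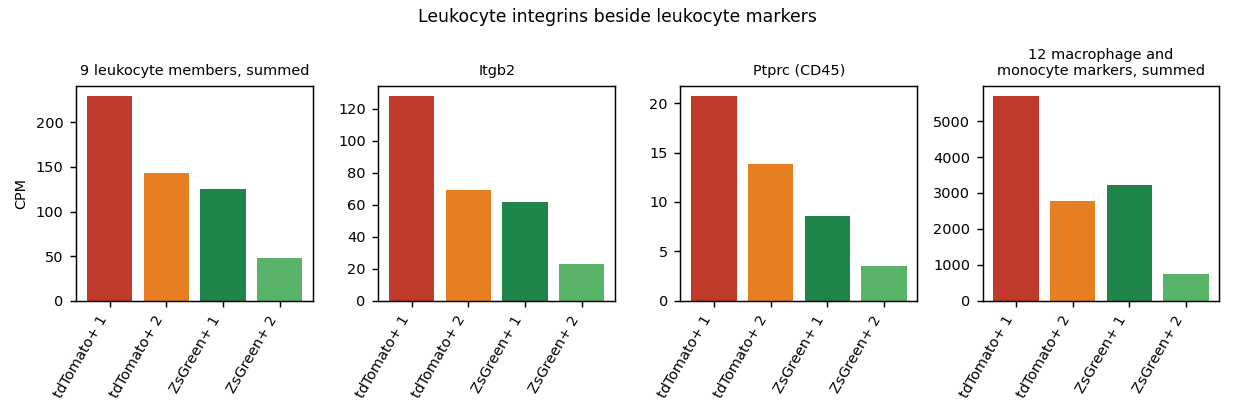
Bars give CPM in each library for the 9 leukocyte members summed, for Itgb2, for Ptprc and for 12 macrophage and monocyte markers summed, each on its own axis from 0. The first 3 panels share one order of libraries, from tdTomato+ 1 down to ZsGreen+ 2, and in the fourth ZsGreen+ 1 lies above tdTomato+ 2.

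The talins and kindlins bind the beta tail, and none had an unadjusted p under 0.05 in edgeR. Tln1, the main talin at 98.1% to 99.2% of talin TPM, stood at 271 and 280 CPM in tdTomato+ and 327 and 314 CPM in ZsGreen+ libraries (log2 fold change -0.22, SE 0.18). Tln2 stood at 7.43 and 5.78 against 3.92 and 4.82 CPM. Fermt2, the broadly expressed kindlin, stood at 189 and 214 against 199 and 294 CPM, and its log2 fold change of -0.29 (SE 0.23) turned to 0.02 without ZsGreen+ replicate 2. As a share of both kindlins, Fermt3 took 18.1% and 15.8% of TPM in tdTomato+ and 13.8% and 5.22% in ZsGreen+ libraries.

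In the complex of integrin-linked kinase, PINCH and parvin, 0 of 5 genes had an unadjusted p under 0.05 and the median log2 fold change was -0.13. Ilk, the scaffold of the complex, stood at 232 and 305 against 277 and 311 CPM. Its annotated exons share 76.7% of their bases with Taf10 on the opposite strand, whose reads could be counted with it if strand was not used. Lims1 differed more between replicate numbers than between groups, at 154 and 213 against 115 and 224 CPM, and Lims2 stood at 244 and 316 against 348 and 274 CPM. Parvb stood at 226 and 230 against 280 and 280 CPM (log2 fold change -0.30, SE 0.17), and Parva at 163 and 182 against 162 and 162 CPM. The Parva share of parvin TPM was 37.9% and 39.9% in tdTomato+ libraries and 32.9% in both ZsGreen+ libraries.

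Tensins, which bind integrin tails at mature fibrillar adhesions, did not separate as a family. Tns1 stood at 220 and 248 against 222 and 239 CPM. Tns2 stood at 224 and 273 against 213 and 215 CPM, with a log2 fold change of 0.22 (SE 0.19). Tns3 stood at 45.1 and 54.2 against 52.6 and 89.8 CPM, with a log2 fold change of -0.52 (SE 0.28) that was -0.09 without ZsGreen+ replicate 2.

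Src was the one signalling member with a low p. It stood at 8.25 and 10.6 CPM in tdTomato+ libraries (150 and 202 counts) and at 2.97 and 4.98 CPM in ZsGreen+ libraries (47 and 91 counts), without overlap. The log2 fold change was 1.24 (SE 0.40, edgeR unadjusted p = 0.0174, adjusted p = 0.388). Focal adhesion kinase, Ptk2, with which Src acts, stood at 115 and 115 against 102 and 131 CPM. Paxillin, Pxn, stood at 288 and 280 against 384 and 299 CPM, and Bcar1, a Src substrate, at 187 and 227 against 240 and 233 CPM. Both scaffolds lay lower in both tdTomato+ libraries, by log2 fold changes of -0.27 (SE 0.20) and -0.19 (SE 0.19). The ratio of Src to Ptk2 in TPM was 0.0754 and 0.0971 in tdTomato+ and 0.0306 and 0.0409 in ZsGreen+ libraries.

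The 5 genes that share only the symbol's start include Itgb1bp1 (ICAP1), which binds the Itgb1 tail and restrains its activation. It stood at 40.5 and 39.6 CPM in tdTomato+ and 57.5 and 46.6 CPM in ZsGreen+ libraries, without overlap (log2 fold change -0.38, SE 0.19, edgeR adjusted p = 0.691). Itgb3bp, a centromere protein, lay at or under 1.37 CPM and Itgbl1, a secreted integrin-like protein, at or under 1.84 CPM. Itgb1bp2 and Itgb2l had too few counts to be tested.

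Of 42 integrin ligands and counter-receptors tested, edgeR called 2 higher, Vcam1 and Fn1, and 1 lower, Thy1, beside 0.304% of all genes. An unadjusted p under 0.05 was found for 20 of the 42 (15 higher, 5 lower), beside 8.77% of all genes. Their median log2 fold change was 0.46. Vcam1, the ligand of Itga4 on leukocytes, stood at 294 and 276 against 83.2 and 58.8 CPM (log2 fold change 2.00, SE 0.22, edgeR adjusted p = 0.0304). Fn1, fibronectin, the ligand of Itga5, stood at 227 and 199 against 73.4 and 48.6 CPM, with a log2 fold change of 1.80 (SE 0.24, edgeR adjusted p = 0.0467). Thy1, a surface protein bound by Itgb3 and Itgb2 integrins and also a marker of lymphatic endothelium and fibroblasts, stood at 7.32 and 9.24 against 57.6 and 71.3 CPM, a log2 fold change of -2.96 (edgeR adjusted p = 0.0304). Vwf, a ligand of platelet integrin, stood at 2006 and 2961 against 947 and 845 CPM (log2 fold change 1.47, SE 0.25, edgeR adjusted p = 0.103). The ligand list shares Col1a1, Col1a2, Col3a1 and Npnt with the fibroblast markers, which summed to 259 and 468 against 123 and 149 CPM, and their part in the matrix ligands was not tested.

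Among regulators of integrin activation edgeR called 1 of 18 genes, Kank1, beside 0.304% of all genes. At an unadjusted p under 0.05 edgeR listed 3 of the 18, beside 8.77% of all genes. Kank1, a talin-binding protein, stood at 47.8 and 60.7 against 13.7 and 12.4 CPM (log2 fold change 2.06, SE 0.22, edgeR adjusted p = 0.0304). Its relative Kank2 stood at 41.1 and 49.2 against 24 and 23.6 CPM without passing (0.92, SE 0.20). Dok1, an inhibitor of integrin activation, lay lower in tdTomato+ libraries, at 23.2 and 25 against 39.7 and 32.2 CPM (-0.58, SE 0.21). Apbb1ip (RIAM), which brings talin to the membrane, stood at 10.6 and 6.88 against 5.25 and 1.75 CPM. Among 28 other plaque proteins edgeR called 1, Sorbs2, and listed 2 at an unadjusted p under 0.05, beside the same shares of all genes. Sorbs2, a vinculin-binding adaptor, stood at 86.1 and 86.6 against 30.7 and 34.6 CPM (2.64-fold, edgeR adjusted p = 0.0432). Enah, an actin regulator, stood at 9.9 and 16.7 against 4.94 and 7.23 CPM. Tns4, a further tensin, stood at 2.48 and 2.21 against 1.14 and 0.329 CPM, and the actin-binding Palld at 68.2 and 110 against 42 and 69.1 CPM with overlap. Among 14 membrane partners and 24 signalling genes edgeR called 0, beside 0.304% of all genes. At an unadjusted p under 0.05 edgeR listed 1 and 3 of them, beside 8.77% of all genes. The tetraspanin Cd63 stood at 255 and 258 against 176 and 142 CPM and its relative Cd81 at 574 and 791 against 461 and 494 CPM. The syndecan Sdc3 lay lower in tdTomato+ libraries, at 346 and 365 against 562 and 433 CPM, and Sdc2 stood at 1.76 and 2.57 against 1.01 and 0.876 CPM. In the signalling list the adaptor Nck2 had the smallest p and lay lower in tdTomato+ libraries, at 46.3 and 41.7 against 65.1 and 57.2 CPM (-0.48, SE 0.18). Nedd9, a relative of p130Cas, stood at 180 and 171 against 125 and 140 CPM, the kinase Abl2 at 46 and 40.3 against 30 and 38.6 CPM, and Ptk2b, the relative of focal adhesion kinase that is abundant in leukocytes, at 71.2 and 56.4 against 45.7 and 20.5 CPM. Medians were 0.09 for activation, 0.10 for plaque, -0.06 for membrane and -0.07 for signalling genes, beside the -0.01 of all genes. Without 1 library they ranged from -0.13 to 0.31, -0.03 to 0.35, -0.14 to 0.09 and -0.11 to 0.01 in that order, so each changed sign. Of the 5 calls over these lists, only Thy1 was called with tdTomato+ replicate 1 left out and 0 genes with tdTomato+ replicate 2 left out, where Kank1 had the log2 fold change 1.90 and an edgeR adjusted p of 0.23. With ZsGreen+ replicate 2 left out Thy1 and Vcam1 were called, and 10 list genes with ZsGreen+ replicate 1 left out, Vwf and Ptk2b among them. All 5 lay on the same side of 0 in each of these fits.

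Libraries held 17050673 to 18574737 counts, of which the 47 genes took 0.515% to 0.60%. Acta2, the gene the recorder reads, stood at 304 and 528 CPM in tdTomato+ and 87.6 and 82.9 CPM in ZsGreen+ libraries. The 10 endothelial markers were all read in all libraries, with a median log2 fold change of -0.16. edgeR called 0 of them, beside 0.304% of all genes, and 1, Cldn5, had an unadjusted p under 0.05, beside 8.77%. Cldn5 stood at 407 and 533 CPM in tdTomato+ and 769 and 915 CPM in ZsGreen+ libraries. Pecam1 stood at 1862 and 1809 against 2104 and 1940 CPM. Of the 10, 5 lay lower in both tdTomato+ libraries and 1 higher, beside 18.2% and 19.9% of all genes. Medians of the marker lists not yet given were 0.78 for general leukocyte, 1.05 for macrophage and monocyte, 0.97 for neutrophil, 0.11 for T, NK and B cell, -0.24 for platelet, 1.11 for fibroblast and 0.66 for smooth muscle and pericyte genes. The members known from those cells are given above, and the part of those cells in the values was not tested.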

How the data were processed

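RNA of lung endothelial cells was amplified over the whole transcriptome from a few microlitres and sequenced in bulk, per the labels' protocols. The deposited table gives, per the file headers, read counts, normalized read counts, FPKM and TPM for each library. The estimated counts as deposited are not whole for 16.2% to 17.9% of values and were rounded. RSEM 1.3.1 and DESeq2 1.4.5 and the builds mm10 and GRCm38 are named, with no role, in the submitters' processing notes; aligner and strand setting: not given in the sources used here. TPM, scaled by length, is as the authors deposited it. The deposited FPKM and the authors' normalized count signal were not used.

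edgeR 4.0.16 (R 4.3.3) compared tdTomato+ with ZsGreen+ libraries (2 each) by its two-sided quasi-likelihood test on all genes passing filterByExpr (minimum count 10), with TMM factors of 1.045, 1.026, 0.927 and 1.005 (tdTomato+ 1 and 2, ZsGreen+ 1 and 2) and Benjamini-Hochberg adjustment over all 13177. Each standard error was obtained by dividing the size of the log2 change by the root of its F statistic. With 2 against 2 libraries no exact permutation p can go below 0.333, so none is given. Alternatives were other scaling factors, DESeq2 1.42.0, limma-voom (limma 3.58.1), other filters, a replicate block, leaving out each library, the epithelial sum without Scgb1a1 (chosen after seeing the data), and limma with trend on log2 of TPM plus 1 or 0.1. The test was first checked on counts simulated with a spread common to all genes. Its requirements concerned only unchanged genes and changes far larger than those of the members, so it does not tell whether changes of their size would be called. Members, gene lists and roles were chosen with earlier results of these data known. Named are members that were tested or at 1 TPM or more, and up to 4 genes per pathway list with the smallest p. Krt18, Epcam, Scgb1a1, Hopx, Pf4, Gp1ba, Lcp1, Srgn, Ptprc, Pecam1, Cldn5, Acta2 and untested members are named beside them, chosen after their values were seen.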

Additional observations from a re-analysis of the deposited data

How the results depend on the processing

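No member was called by edgeR, and this depended on the processing. Members called higher numbered 2 with DESeq2, 1 without a filter on low counts and 0 to 4 when 1 library was left out (4 without ZsGreen+ replicate 1), and none was called lower under any alternative. Over all genes the count of 40 became 330 with DESeq2, 128 without a filter, 22 with log2(TPM + 0.1), 0 with log2(TPM + 1) without a filter, and 4 to 304 without 1 library. Calls in the pathway lists, 5 at first, became 14, 8, 2 and 0 under the same 4 alternatives and 0 to 10 without 1 library. Without 1 library, members at an unadjusted p under 0.05 numbered 3 to 12 (7.32% to 28.6%, beside 4.85% to 14.7% of all genes) and those whose groups did not overlap 26 to 37 (63.4% to 88.1%, beside 60% to 76.8% of all genes), a count that rises when an arm holds 1 library. Leaving out 1 library gave log2 fold changes of -0.543 to 0.0169 for Fermt2, -1.25 to 0.268 for Itga1 and -0.0716 to 1.03 for Itgb5, the 3 that reversed among the 28 members with a log2 fold change of at least its SE; the 13 nearer to 0 were given no direction. The members' median of 0.22 was 0.07 to 0.27 without 1 library, 0.08 with a minimum count of 50 and 0.17 to 0.18 in the TPM fits, where that of all genes was 0.0967 to 0.134. Replicate numbers are the only link that the labels give between libraries of both groups. With a replicate block edgeR called 8 members (Itgb4, Src, Itgal, Fermt3, Itgb3, Itgam, Itgb2 and Itgax, adjusted p up to 0.0222) and 26 pathway list genes. Over all genes it then called 934, or 7.09%. At an unadjusted p under 0.05 the block listed 13 members (31.7%), beside 14.7% of all genes. Differences of replicate 1 and 2 in both groups had r = 0.455 over 13177 genes and 0.554 over the 41 members tested. Same-numbered libraries thus varied partly alike. The labels name no shared animal or batch, so with 2 such pairs it cannot be told whether the libraries are paired. With 2 libraries a group, a lone library left in an arm is assumed to vary like the other group's.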
